A study of Mus musculus with 14 samples.

Results

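RNA polymerases I, II and III are the nuclear enzymes that transcribe ribosomal RNA, messenger RNA and small structural RNAs, and the genes described here encode their subunits. They were taken as every gene of the count table whose symbol begins with Polr1, Polr2 or Polr3 followed only by letters, which gave 31 of 56923 genes. The Polr1 symbols numbered 8, the Polr2 symbols 13 and the Polr3 symbols 10. By role, 5 encode subunits found only in RNA polymerase I (Pol I), 2 are shared by Pol I and Pol III, 8 belong to Pol II alone, 5 are shared by all 3 enzymes and 10 belong to Pol III alone. The remaining gene, Polr1has, matched the rule by its name but encodes no subunit and is the divergent neighbour of Polr1h. RNA sequencing counts were analysed for 14 libraries of 2-cell embryos from ICR mice, with 2 libraries in each of 7 groups and 5 embryos in each library. G&N embryos were cultured from 24 h after hCG in a medium containing lactate (10 mM) with Gne140 (5 µM), an inhibitor of lactate dehydrogenase, and NMN (nicotinamide mononucleotide, 50 µM), and G&N-L embryos in the same medium without lactate. Both groups were collected as early 2-cell embryos at 30 h and as late 2-cell embryos at 54 h after the injection of hCG, the hormone that triggers ovulation. The other 3 late groups were G&N-L embryos given lactyl-coenzyme A (Lac-CoA), embryos overexpressing mRNA for the H3K18R mutant of histone H3, in which lysine is replaced by arginine, and embryos labelled WT. The G&N, G&N-L and Lac-CoA groups thus all carried Gne140 and NMN, and the labels give no more of the WT group than its name, which the paper uses for overexpression of the unmutated H3 mRNA. The paper describes Lac-CoA and the H3 mRNAs as injected into zygotes, and describes no injection for G&N and G&N-L embryos. Injection and Lac-CoA therefore cannot be told apart between these groups. The treatment labels of the early groups name Gne140 and NMN for G&N-L and Gne140 alone for G&N, so groups were taken from the sample titles. The label of the Lac-CoA group names CoA. The columns of the mutant group in the count table name a change of the same lysine to alanine, so which mutant was used rests on the sample labels.

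Each polymerase is built around its 2 largest subunits, which together form the active site, on a platform of small subunits, some of which are used by more than 1 enzyme. Pol I makes the large ribosomal RNA precursor in the nucleolus, Pol II makes messenger RNA and Pol III makes 5S ribosomal RNA, transfer RNA and other short transcripts. In the mouse, the fertilised egg begins with RNA stored by the oocyte, and the embryo's own genome is transcribed in full from the late 2-cell stage, a step called major zygotic genome activation, while the stored RNA is degraded.

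The libraries held 20350427 to 61275465 counts, and levels are given below as CPM (counts scaled to a common library total) on library sizes scaled together over the 14 libraries. Markers of the late 2-cell stage summed to 200.03 to 336 CPM in the early and 2000.03 to 3365 CPM in the late libraries. Oocyte markers summed to 20584 to 27488 CPM early and 3615 to 19229 CPM late, and the 5 sperm markers to 2.71 to 22.4 CPM. Of the 10 markers of cumulus and granulosa cells, 4 to 9 were at 0 and the list summed to 5.39 to 33.4 CPM. H3c1, which encodes histone H3, reached 43643 and 83390 counts in the H3K18R embryos, as against 0 to 66 counts in the other 12, including 4 and 3 in the libraries labelled WT. Nothing in the labels says that the 2 libraries of a group came from separate cultures, so the p-values below measure only the spread between these libraries. With pools of embryos, fewer cells of a type and less RNA per cell cannot be told apart. An exact permutation test of 2 libraries against 2 could not go below a two-sided p of 0.333, so the tests came from models fitted across all genes.

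Measured per kilobase of exon, the stalk and platform subunits of Pol II stood at the top of the list, whereas its catalytic subunit stood near the bottom. In early G&N embryos, the highest level was that of Polr2g, a stalk subunit, at 409.7 and 377 CPM per kb. It was followed by Polr2c, a subunit of the assembly platform, at 185 and 152 CPM per kb and by Polr2d, the partner of Polr2g in the stalk, at 158 and 92.9 CPM per kb. Polr2g did not overlap with Polr2c, whereas Polr2c and Polr2d overlapped. Polr2a, the largest subunit of Pol II, whose tail carries the repeats that are phosphorylated during transcription, was at 0.550 and 0.416 CPM per kb, in position 27 of 31. Polr1a and Polr1b, the largest subunits of Pol I, were in positions 28 and 29. In late G&N embryos, Polr2d (204 and 214 CPM per kb) and Polr2g (181 and 203 CPM per kb) led the order, without overlap, and Polr2a was at 1.01 and 0.846 CPM per kb, in position 28. The lowest mean at both stages was that of Polr3gl, at 0.255 and 0 CPM per kb early, where it overlapped with Polr3e (0.250 and 0.0499 CPM per kb), and 0.262 and 0.228 CPM per kb late. The length was that of all annotated exons merged, which lowers the value of genes with long rarely used exons.

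**Figure D1:**
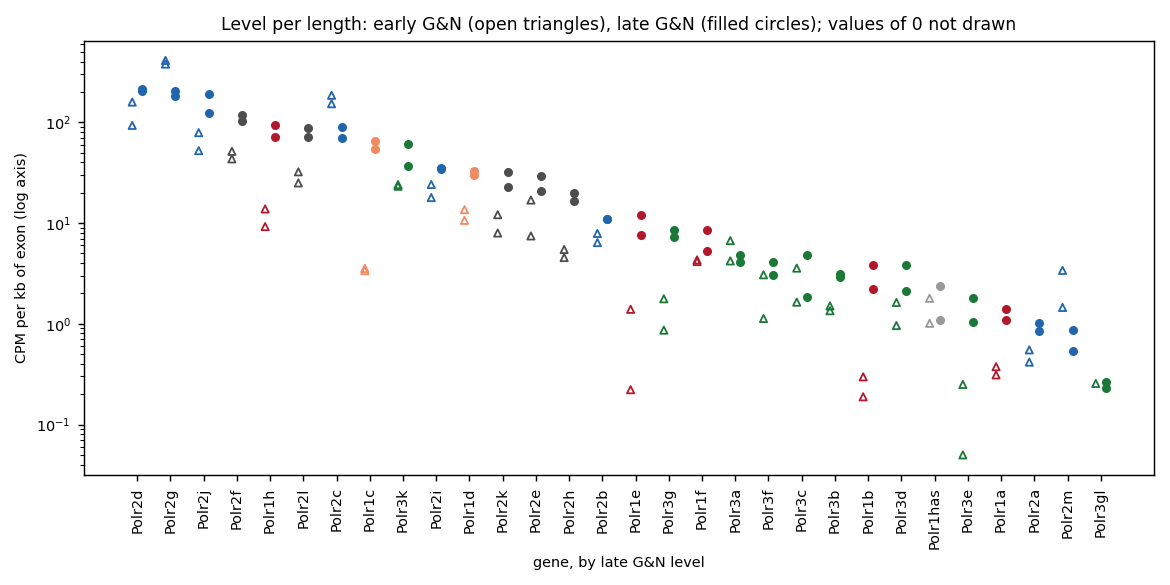
Level of 30 of the genes per kilobase of merged exon in the early (open triangles) and late (filled circles) G&N libraries, on a log axis, ordered by the late mean and coloured by class (red Pol I, orange Pol I and III, blue Pol II, dark grey all 3, green Pol III, light grey Polr1has). Polr2g and Polr2d stand at the top and Polr2a, Polr2m and Polr3gl at the bottom.

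Between the early and the late 2-cell stage in G&N embryos, 2 of 5 genes of Pol I alone, both genes shared by Pol I and Pol III, 3 of the 5 shared by all polymerases and 1 of 10 of Pol III alone rose, and 2 of 8 of Pol II alone fell. In G&N embryos, 26 of the 31 genes were higher at the late stage and 5 lower, with a median log2 fold change of 1.01 against 0.08 over the 19443 genes tested. edgeR's quasi-likelihood test with Benjamini-Hochberg adjustment called 8 genes higher, where 8.18% of all tested genes were, and 2 lower, where 5.47% were. The 8 were Polr1c, Polr1h, Polr2h, Polr3g, Polr1b, Polr2l, Polr1d and Polr2f, and the 2 were Polr2g and Polr2c. In G&N-L embryos, 23 genes were higher and 8 lower, with a median of 0.61 against 0.15 over 18604 genes. There the test called 5 higher (Polr1c, Polr2j, Polr2f, Polr3g and Polr2e, where 5.97% of all genes were) and 2 lower (Polr2g and Polr3a, where 5.87% were). In both media the lower calls were near the share over all genes. The calls depended on single libraries. Fewer genes passed when either late G&N library was left out, and when any single G&N-L library was. The share of all genes called in those fits is not given here, so the fall cannot be read as particular to this list. Scaling by library totals moved the median of all genes to 0.46 in G&N, against which the list stood 0.90 higher, compared with 0.93 higher on the scaling used. With library totals the calls in G&N were 11 higher and 0 lower, and with the size factors of DESeq2 9 higher and 0 lower. In G&N-L they were 8 higher and 1 lower with library totals, under which the median of all genes moved to 0.51, and 5 higher and 2 lower with the size factors. With library totals 39.3% of all genes were lower in G&N and 35.7% in G&N-L, against 48.2% and 45.9% on the scaling used. The share of all genes called under these other scalings is not given here. Oocyte markers also differed between the stages: 5 of 10 fell in G&N and 2 of 10 in G&N-L. The part of that change of RNA pool in the results for these genes was not tested.

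**Figure D2:**
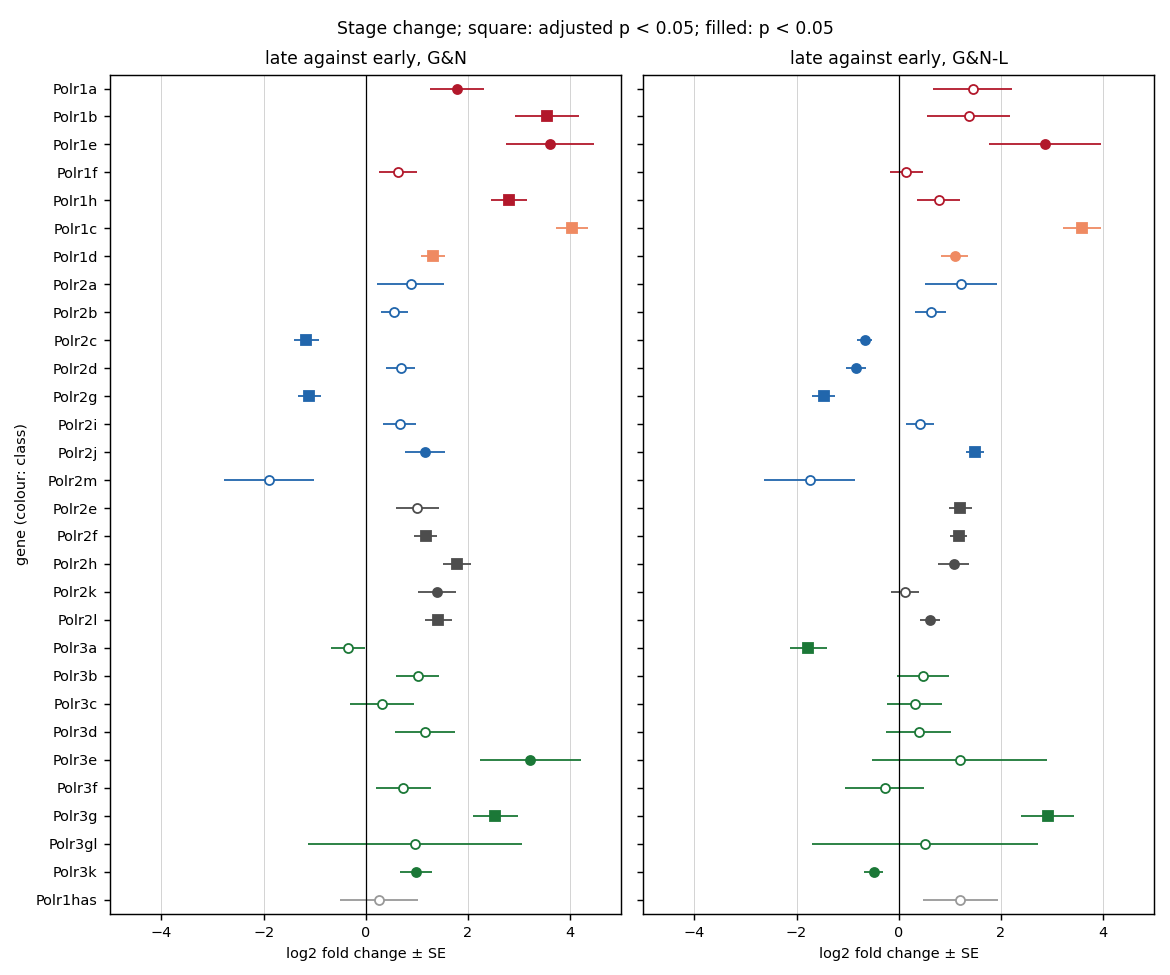
Log2 fold change, late against early, with its SE, for 30 of the genes in G&N (left) and G&N-L (right), 2 libraries against 2. Squares mark an adjusted p under 0.05, filled symbols an unadjusted p under 0.05, and colours the class as in the plot of levels per length. Polr1c lies farthest to the right among the squares in both panels, and Polr2g lies to the left of 0 in both.

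Among the genes shared by Pol I and Pol III, Polr1c had the largest rise of the called genes. Together with Polr1d it encodes the pair that starts the assembly of both enzymes. Polr1c was at 8.69 and 8.28 CPM in early G&N and 132 and 161 CPM in late G&N, and at 6.32 and 4.94 CPM in early G&N-L and 87.8 and 52.4 CPM in late G&N-L. The late libraries were above all early ones, with a log2 fold change of 4.03 ± 0.310 (SE; edgeR adjusted p = 0.00607) in G&N and 3.58 ± 0.378 (adjusted p = 0.00972) in G&N-L. Polr1d went from 86.1 and 67.4 to 191 and 208 CPM in G&N, for a log2 fold change of 1.31 ± 0.244 (edgeR adjusted p = 0.029), and from 68.95 and 40.8 to 119.9 and 122 CPM in G&N-L, where the edgeR adjusted p was 0.064.

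Promoter sequence is shown for 4 of the genes that share a short word, from different polymerases, and for the start region shared by Polr1h and Polr1has. RefSeq windows of 300 bases on build GRCm38.p6, from 250 bases before the start to 50 after it, were matched for 25 of the 31 genes (29 windows). Polr2d, Polr2g, Polr2k and Polr3a were among those not matched. The core word bound by ETS factors, CCGGAAG or its reverse complement CTTCCGG, was found in windows of 7 genes (Polr1c, Polr1e, Polr2c, Polr2f, Polr2j, Polr3b and Polr3g), and in 8.86% of all 32851 windows. The GC box, GGGCGG on either strand, was found for 14 genes and in 35.7% of all windows, CCAAT on either strand for 9 genes and in 37.4%, and TATAAA on either strand for Polr2a and Polr2c and in 13.6%. These are matches of letters only. Of the 7 genes with the ETS word, edgeR called Polr1c, Polr2f and Polr3g higher with the stage in both media. It called Polr2j higher in G&N-L and Polr2c lower in G&N embryos, and did not call Polr1e and Polr3b. DESeq2 also called Polr1e higher in both media, Polr2j and Polr3b higher in G&N and Polr2c lower in G&N-L. It called 19% of all genes higher in G&N, and 17% higher and 11.4% lower in G&N-L. The windows, read on the strand of the gene with the ETS word in capitals, lie at chr17:46247996-46248295 (minus strand) for Polr1c, chr4:45018359-45018658 (plus strand) for Polr1e, chr8:94857200-94857499 (plus strand) for Polr2c and chr13:81710964-81711263 (minus strand) for Polr3g.
Polr1c: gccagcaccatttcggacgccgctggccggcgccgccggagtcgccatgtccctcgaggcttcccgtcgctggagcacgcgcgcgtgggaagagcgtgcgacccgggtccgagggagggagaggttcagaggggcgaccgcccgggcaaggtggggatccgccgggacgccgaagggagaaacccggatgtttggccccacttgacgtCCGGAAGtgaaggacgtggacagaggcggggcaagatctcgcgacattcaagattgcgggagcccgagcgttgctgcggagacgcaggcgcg
Polr1e: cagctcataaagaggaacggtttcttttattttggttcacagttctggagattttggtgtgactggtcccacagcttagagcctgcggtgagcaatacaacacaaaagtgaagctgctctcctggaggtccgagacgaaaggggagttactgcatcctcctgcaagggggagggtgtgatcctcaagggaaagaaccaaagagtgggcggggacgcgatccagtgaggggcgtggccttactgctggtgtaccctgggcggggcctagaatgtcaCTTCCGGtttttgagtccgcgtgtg
Polr2c: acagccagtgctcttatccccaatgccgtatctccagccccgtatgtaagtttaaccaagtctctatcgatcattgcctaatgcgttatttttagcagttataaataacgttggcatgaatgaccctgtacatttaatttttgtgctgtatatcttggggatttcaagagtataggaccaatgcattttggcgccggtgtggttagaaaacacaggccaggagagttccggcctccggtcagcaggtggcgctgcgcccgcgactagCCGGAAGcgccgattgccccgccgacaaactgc
Polr3g: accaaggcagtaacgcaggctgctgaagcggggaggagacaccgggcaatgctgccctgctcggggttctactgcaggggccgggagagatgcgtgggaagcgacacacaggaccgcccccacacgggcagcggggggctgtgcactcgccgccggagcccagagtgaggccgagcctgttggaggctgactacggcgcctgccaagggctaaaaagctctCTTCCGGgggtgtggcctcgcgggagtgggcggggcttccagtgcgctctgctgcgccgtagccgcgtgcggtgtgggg

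Of the Pol I subunits, Polr1h and Polr1b passed edgeR's test for a rise in G&N embryos. Polr1h, the small subunit that takes part in cleaving backtracked RNA, was at 14.3 and 9.56 CPM early and 74.3 and 98.2 CPM late in G&N, for a log2 fold change of 2.80 ± 0.349 (edgeR adjusted p = 0.0122). In G&N-L it was at 20.4 and 11.2 CPM early and 22.3 and 34.2 CPM late. The late libraries were above the early ones in both groups, although in G&N-L the log2 fold change was 0.78 ± 0.420 (edgeR adjusted p = 0.284). Polr1b, the second largest subunit, was at 1.47 and 2.32 CPM in early and 17.3 and 29.9 CPM in late G&N (log2 fold change 3.54 ± 0.625, edgeR adjusted p = 0.0257), and at 1.36 and 2.72 CPM in early and 4.004 and 7.07 CPM in late G&N-L (edgeR adjusted p = 0.341). Polr1a, the catalytic subunit, was at 4.47 and 3.71 CPM in early and 12.9 and 16.6 CPM in late G&N, and at 1.84 and 6.16 CPM in early and 13.96 and 9.03 CPM in late G&N-L. Its late values were all above its early values, and edgeR gave adjusted p = 0.0741 in G&N and 0.287 in G&N-L. Polr1f, a stalk subunit, stood at 30.3 and 29.2 CPM early and 36.97 and 60.1 CPM late in G&N, and at 22.5 and 24.2 CPM early and 31.4 and 22.6 CPM late in G&N-L, where the stages overlapped. Polr1e, part of the dimer that helps Pol I to initiate, was at 10.4 and 1.66 CPM early and 90.6 and 56.5 CPM late in G&N. In G&N-L it was at 3.80 and 0.635 CPM early and 6.55 and 26.9 CPM late. Its late libraries were above the early ones in each medium. edgeR did not call Polr1e. DESeq2 called it higher in G&N, as it did Polr1a, and in G&N-L, where 19% and 17% of all genes were called higher.

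Of the 8 genes of Pol II alone, 3 were lower late than early in G&N embryos, and of these Polr2g and Polr2c passed the test. Polr2g was at 649 and 598 CPM early and 287 and 322 CPM late in G&N (log2 fold change -1.11 ± 0.230, edgeR adjusted p = 0.0376) and at 773 and 603 CPM early and 209 and 307 CPM late in G&N-L (-1.47 ± 0.231, adjusted p = 0.0227). Every early library was above every late one. Polr2c went from 1249 and 1029.8 CPM to 466 and 599 CPM in G&N, giving a log2 fold change of -1.16 ± 0.245 (edgeR adjusted p = 0.0388), and from 829 and 725 CPM to 468 and 551 CPM in G&N-L (adjusted p = 0.0512). The call on Polr2c and Polr2g in G&N was not kept with the size factors of DESeq2 (adjusted p of 0.0508 and 0.0504) or with library totals (0.0695 and 0.0721). Polr2j, the partner of Polr2c in the platform, moved the other way: it was at 114 and 172 CPM early and 267 and 417 CPM late in G&N (edgeR adjusted p = 0.0949), and at 141 and 127 CPM early and 348 and 432 CPM late in G&N-L, where it rose by 1.48 ± 0.175 on the log2 scale (adjusted p = 0.0126). The gene span of Polr2c, introns included, shares 9708 bases with that of Dok4 on the opposite strand, and that of Polr2j 7641 bases with Lrwd1. Spans of other members overlap opposite-strand genes too, the largest subunits included. Examples are Polr1a (31826 bases with Gm68334), Polr2b (5922 bases with Igfbp7), Polr3a (8640 bases with 4933428L12Rik) and Polr1e (4267 bases with Fbxo10). How much of the exons overlaps was not measured. Whether the counting used strand is not given in the sources used here, so reads of these pairs may not be told apart.

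Neither of the 2 largest subunits of Pol II passed the test for the stage. Polr2a was at 4.12 and 3.12 CPM in early and 7.55 and 6.34 CPM in late G&N, and at 2.42 and 6.16 CPM in early and 7.98 and 13.2 CPM in late G&N-L, with edgeR adjusted p of 0.417 and 0.321 for the stage. Polr2b was at 53.1 and 43.1 CPM in early and 73.7 and 74.3 CPM in late G&N, and at 24.2 and 35.04 CPM in early and 49.8 and 46.1 CPM in late G&N-L (adjusted p of 0.217 and 0.239). The late values of both were above the early ones in each medium. Polr2d was at 176 and 103 CPM early and 226 and 237 CPM late in G&N but at 200.1 and 158 CPM early and 111 and 97.01 CPM late in G&N-L. The late values of Polr2d thus lay above the early ones with lactate and below them without it, with edgeR adjusted p of 0.158 and 0.0524. Of the other 2, Polr2i, a small subunit at the active site funnel, ranged from 21.4 to 72.1 CPM over the 14 libraries, and Polr2m, which encodes the Gdown1 protein found on part of the Pol II pool, from 1.10 to 17.7 CPM. Polr2m was the third of the genes lower in late G&N, at 3.69 and 8.60 CPM early and 1.37 and 2.20 CPM late in G&N (edgeR adjusted p = 0.199) and 4.36 and 9.43 CPM early and 3.22 and 1.10 CPM late in G&N-L (adjusted p = 0.264), without overlap in either medium.

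The 5 subunits common to the 3 polymerases were all higher late than early in both media. In G&N, Polr2h (31.9 and 26.6 CPM early and 96.03 and 115 CPM late) rose by 1.78 ± 0.283 on the log2 scale (edgeR adjusted p = 0.0202). Polr2l (85.8 and 66.6 CPM early and 192 and 234 CPM late) rose by 1.42 ± 0.256 (adjusted p = 0.0269). Polr2f (245 and 206 CPM early and 494 and 568 CPM late) rose by 1.17 ± 0.232 (adjusted p = 0.0342). The 3 passed the test, while Polr2e (64.6 and 28.4 CPM early and 80.2 and 112 CPM late) and Polr2k (21.4 and 14.1 CPM early and 40.6 and 56.3 CPM late) had edgeR adjusted p of 0.156 and 0.0628. In G&N-L, Polr2f went from 191 and 153 to 417 and 389 CPM (1.17 ± 0.167, adjusted p = 0.0185) and Polr2e from 37.4 and 28.4 to 72.4 and 84.9 CPM (1.20 ± 0.230, adjusted p = 0.0358). The other 3 did not pass there: Polr2h was at 37.4 and 23.4 CPM early and 55.7 and 76.8 CPM late, Polr2l at 82.5 and 95.01 CPM early and 137 and 146 CPM late, and Polr2k at 23.5 and 23.6 CPM early and 25.3 and 28.2 CPM late.

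Among Pol III genes, the paralogues Polr3g and Polr3gl, which encode alternative forms of one subunit of the initiation trimer, were used very unequally. Polr3g was at 10.9 and 5.35 CPM in early and 44.6 and 52.2 CPM in late G&N, a log2 fold change of 2.53 ± 0.442 (edgeR adjusted p = 0.0252). In G&N-L it was at 6.32 and 11.97 CPM early and 94.3 and 50.02 CPM late (2.91 ± 0.518, adjusted p = 0.0301). It stood at 55.5 and 36.9 CPM with Lac-CoA, 96.3 and 89.3 CPM in WT and 62.4 and 59.7 CPM in H3K18R embryos, so that every late library was above every early one. Polr3gl was at 0.667 and 0 CPM in early G&N, 0.428 and 0.453 CPM in early G&N-L, 0.684 and 0.597 CPM in late G&N, 0 and 1.33 CPM in late G&N-L, 1.93 and 1.45 CPM with Lac-CoA, 2.57 and 0.0308 CPM in WT and 0 and 1.14 CPM in H3K18R embryos. In each of the 14 libraries Polr3gl lay below Polr3g per kilobase as well. Polr3a, the catalytic subunit, fell in G&N-L, from 33.8 and 50.04 CPM early to 11.2 and 14.6 CPM late (-1.77 ± 0.358 on the log2 scale, edgeR adjusted p = 0.0409). In G&N it was at 56.3 and 35.4 CPM early and 40.1 and 34.2 CPM late, which overlapped (adjusted p = 0.534). Polr3b, the second largest subunit, was at 10.03 and 11.2 CPM early and 21.9 and 23.4 CPM late in G&N, and at 6.07 and 8.97 CPM early and 12.4 and 9.50 CPM late in G&N-L. Polr3k, a small subunit used in cleavage and termination, was at 194 and 187 CPM early and 299 and 490.1 CPM late in G&N but at 216 and 257 CPM early and 177 and 174 CPM late in G&N-L (edgeR adjusted p of 0.0852 and 0.14). As for Polr2d, the late values lay above the early ones with lactate and below them without it.

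**Figure D3:**
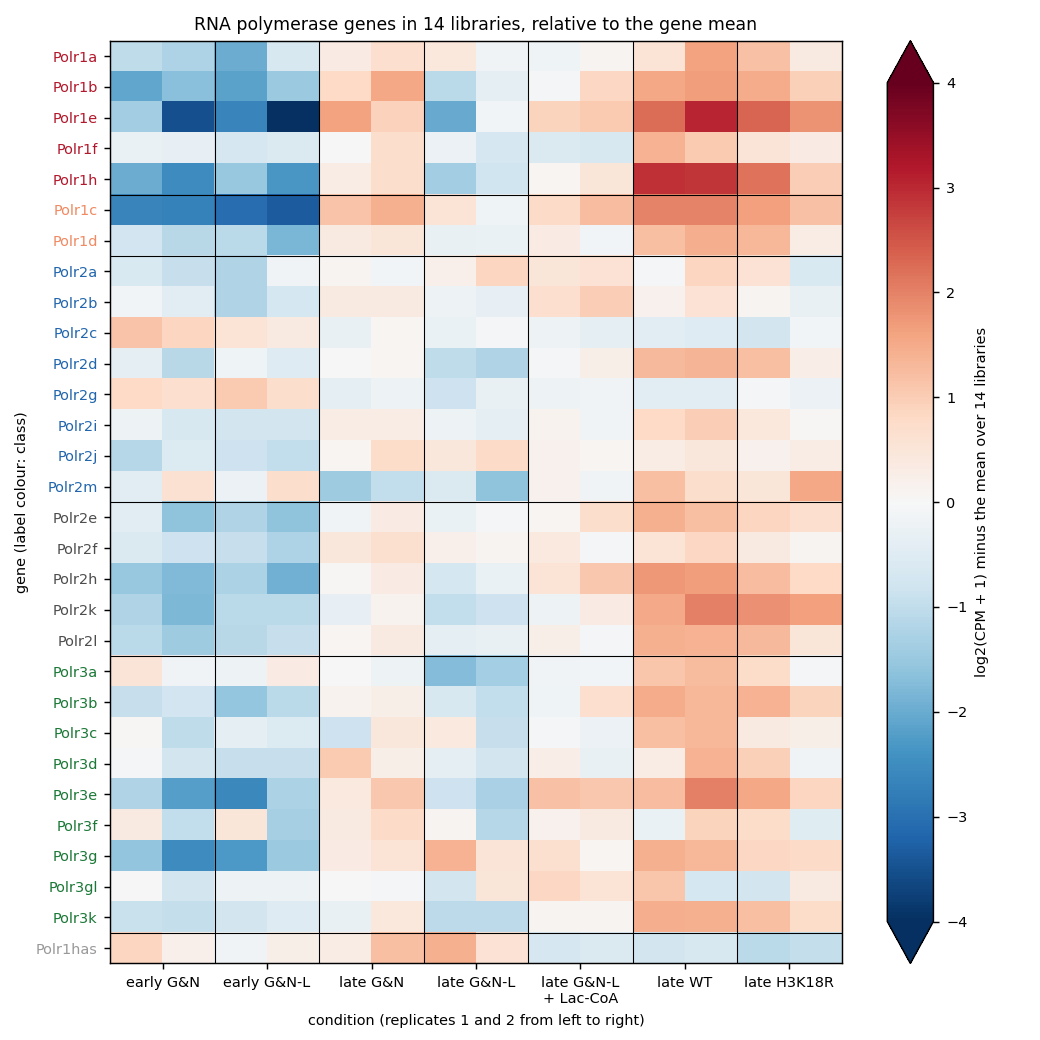
Level of 30 of the genes in each library as log2(CPM + 1) minus the gene's mean over the 14 libraries, with genes in rows grouped by class and the 7 groups in columns. Polr1c, Polr1h and Polr1e are blue in the early libraries and red in WT, Polr2c and Polr2g have the opposite order between the early and late libraries, and the late G&N-L columns are paler or bluer than late G&N for most Pol I and Pol III genes.

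Removal of lactate was compared at the late 2-cell stage, where the study asked whether lactate is needed for genome activation. Late G&N-L embryos had lower levels of most of the genes than late G&N embryos: 25 of 31 were, where 51% of all tested genes were lower, and 23 were with the size factors of DESeq2 or with library totals. The median log2 fold change was -0.62, against -0.02 over 19481 genes. By class the median was -1.56 for Pol I (5 of 5 lower), -0.84 for the genes shared by Pol I and Pol III (2 of 2), -1.05 for Pol III (8 of 10), -0.54 for the subunits shared by all (5 of 5) and -0.10 for Pol II (5 of 8). No single gene passed at the threshold: edgeR called 0 of 31 at an adjusted p under 0.05, as it did for 0% of all genes, and the smallest adjusted p of the list was 0.311. At an unadjusted p under 0.05, 12 were lower, where 7.65% of all genes were, and 0 higher, where 4.32% were. DESeq2 called 6 lower (3.46% of all genes with an adjusted p), Polr2d, Polr1h, Polr3k, Polr1e, Polr3a and Polr1b, and 0 higher, where it called 313 of the 19481 genes higher. The G&N-L libraries were both below the G&N libraries for 19 of the 31 genes, compared with 24.9% of all genes. Oocyte markers summed to 16738 and 19229 CPM in G&N-L and 13110 and 15105 CPM in G&N. In fold change, 7 of the 10 oocyte markers were higher in G&N-L and 3 lower. Late 2-cell markers summed to 2107 and 2527 CPM in G&N-L and 2031 and 2529 CPM in G&N. Of the 9 tested, 6 were higher in G&N-L and 3 lower. The part of either set of markers in the lower values was not tested.

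Embryos injected with Lac-CoA and cultured as G&N-L were compared with G&N-L embryos, for which the paper describes no injection. With Lac-CoA, 22 of 31 genes were higher and 9 lower, with a median log2 fold change of 0.64, against -0.01 over 19610 genes. With library totals 25 were higher and the list stood 0.65 above the median of all genes, as it did on the scaling used. The 2 comparisons share the late G&N-L libraries, so a low value there lowers one and raises the other, and no overlap between them was tested. edgeR called 0 of 31 at an adjusted p under 0.05 (0% of all genes; smallest adjusted p 0.294). At an unadjusted p under 0.05, 9 genes were higher (6.92% of all genes) and 2 lower (6.38%). DESeq2 called 7 higher (3.8% of all genes with an adjusted p) and 0 lower, where it called 528 of the 19610 genes lower. Both Lac-CoA libraries were above both G&N-L libraries for 22 genes, compared with 24.8% of all genes. Leaving out G&N-L replicate 1 gave a median of 0.83, and leaving out its replicate 2 gave 0.44. Oocyte markers summed to 14111 and 9895 CPM with Lac-CoA, below the G&N-L values for 10 of 10 markers in fold change, and late 2-cell markers to 3220 and 3365 CPM against 2107 and 2527 CPM. Their part in the higher values was not tested.

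**Figure D4:**
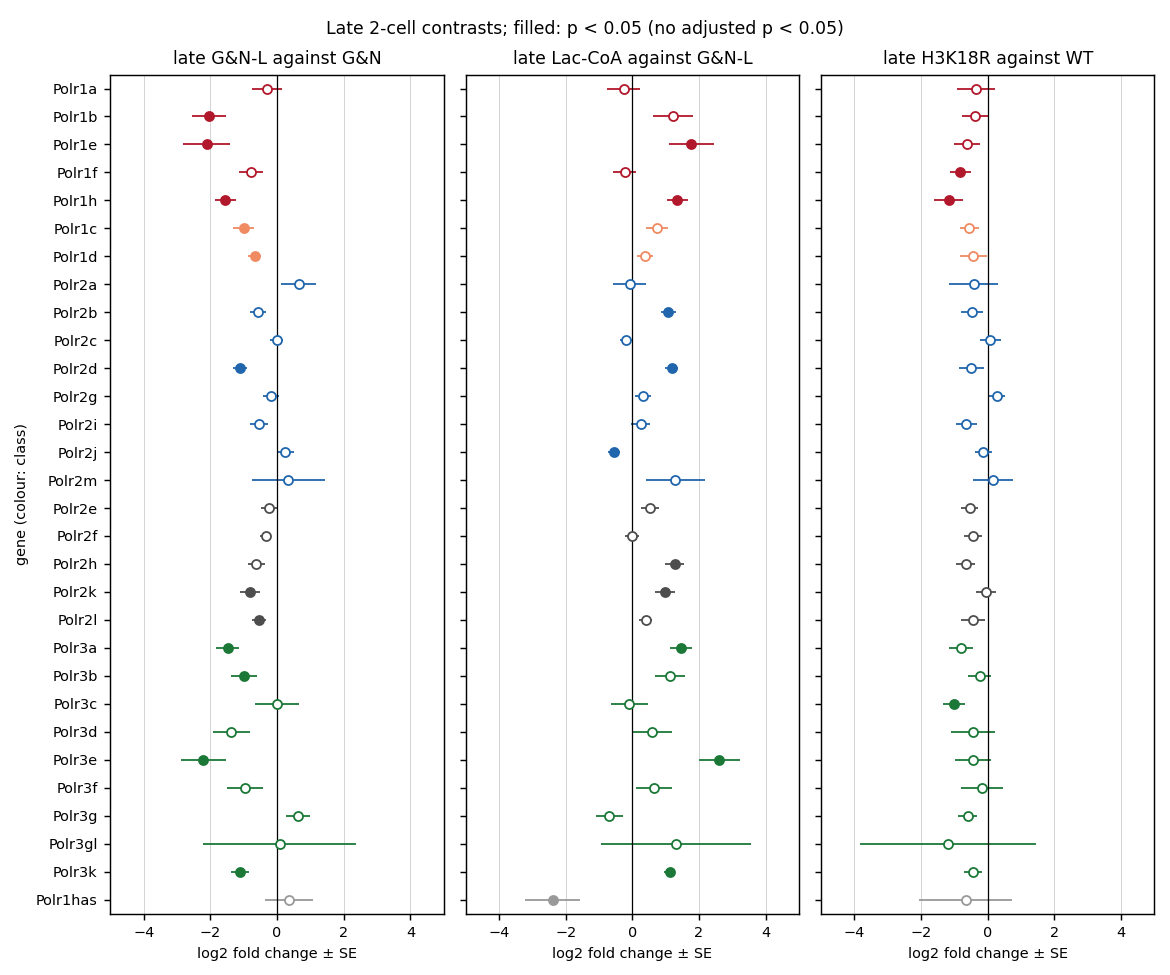
Log2 fold change with its SE for 30 of the genes in late G&N-L against G&N (left), Lac-CoA against G&N-L (middle) and H3K18R against WT (right), 2 libraries against 2, with filled circles for an unadjusted p under 0.05 and colours by class as in the plot of levels per length. Most genes lie below 0 in the left and right panels and above 0 in the middle panel, and none passed an adjusted p of 0.05.

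The gene with the smallest p for the removal of lactate was Polr2d, whose product forms the stalk of Pol II with that of Polr2g. It was at 226 and 237 CPM in G&N, 111 and 97.01 CPM in G&N-L and 219 and 267 CPM with Lac-CoA. The G&N-L libraries were the lowest of the 6, with log2 fold changes of -1.11 ± 0.204 for G&N-L against G&N (edgeR adjusted p = 0.311; DESeq2 0.00072) and 1.18 ± 0.203 for Lac-CoA against G&N-L (edgeR 0.294; DESeq2 0.000102). Polr2d was at 549.7 and 575 CPM in WT and 522 and 274 CPM in H3K18R embryos. Polr2b was at 73.7 and 74.3 CPM in G&N, 49.8 and 46.1 CPM in G&N-L and 93.02 and 116 CPM with Lac-CoA, again lowest in G&N-L. Its log2 fold change was 1.07 ± 0.228 for Lac-CoA against G&N-L (edgeR adjusted p = 0.294; DESeq2 0.00575), and it was at 65.4 and 86.6 CPM in WT and 62.6 and 46.98 CPM in H3K18R embryos. Polr2a was one of the genes that were not lower: it was at 7.55 and 6.34 CPM in G&N, 7.98 and 13.2 CPM in G&N-L, 10.1 and 10.7 CPM with Lac-CoA, 6.61 and 13.4 CPM in WT and 10.7 and 4.16 CPM in H3K18R embryos, and its fold change for the removal of lactate was 0.65 ± 0.530 on the log2 scale (edgeR adjusted p = 0.782). Polr2c stood at 493 and 429 CPM with Lac-CoA, 423 and 398 CPM in WT and 343 and 525 CPM in H3K18R embryos, so that its 10 late libraries lay between 343 and 599 CPM. Polr2j went against most of the list with Lac-CoA, at 285 and 265 CPM compared with 348 and 432 CPM in G&N-L (-0.55 ± 0.186, edgeR adjusted p = 0.31), and was at 311 and 342 CPM in WT and 282 and 312 CPM in H3K18R embryos.

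Pol I genes had the lowest class median without lactate. Polr1h was at 74.3 and 98.2 CPM in G&N, 22.3 and 34.2 CPM in G&N-L and 63.99 and 84.7 CPM with Lac-CoA. Its log2 fold change was -1.56 ± 0.316 without lactate (edgeR adjusted p = 0.313; DESeq2 0.002) and 1.35 ± 0.320 on adding Lac-CoA (edgeR 0.294; DESeq2 0.00959). Polr1b was at 17.3 and 29.9 CPM in G&N, 4.004 and 7.07 CPM in G&N-L and 9.22 and 17.5 CPM with Lac-CoA, and the first 2 groups differed by -2.04 ± 0.520 on the log2 scale (edgeR adjusted p = 0.33; DESeq2 0.0228). Polr1e was at 90.6 and 56.5 CPM in G&N, 6.55 and 26.9 CPM in G&N-L and 55.5 and 62.1 CPM with Lac-CoA, with -2.11 ± 0.699 (edgeR adjusted p = 0.34; DESeq2 0.0188) and 1.77 ± 0.670 (edgeR 0.352; DESeq2 0.0578). For these 3 genes both G&N-L libraries were below the libraries of the other 2 groups. Polr1a did not separate G&N-L from the other groups, with 12.9 and 16.6 CPM in G&N, 13.96 and 9.03 CPM in G&N-L and 8.97 and 10.9 CPM with Lac-CoA. Polr1f was at 36.97 and 60.1 CPM in G&N, 31.4 and 22.6 CPM in G&N-L and 24.3 and 23.3 CPM with Lac-CoA, and so was no higher with Lac-CoA than without it.

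For the genes shared by Pol I and Pol III, Polr1c was at 132 and 161 CPM in G&N, 87.8 and 52.4 CPM in G&N-L and 101 and 141 CPM with Lac-CoA (-1.01 ± 0.318 without lactate, edgeR adjusted p = 0.336). Polr1d was at 191 and 208 CPM in G&N, 119.9 and 122 CPM in G&N-L and 186 and 138 CPM with Lac-CoA (-0.67 ± 0.192, edgeR adjusted p = 0.332). Both had their lowest 2 late values of these groups in G&N-L. Polr1c was at 237 and 238 CPM in WT and 189 and 135 CPM in H3K18R embryos, and Polr1d at 339 and 407 CPM and 371 and 182 CPM.

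For the subunits common to all polymerases, Polr2k was at 40.6 and 56.3 CPM in G&N, 25.3 and 28.2 CPM in G&N-L and 44.3 and 64.5 CPM with Lac-CoA (-0.80 ± 0.296 and 0.97 ± 0.301, edgeR adjusted p of 0.371 and 0.305). Polr2h was at 96.03 and 115 CPM in G&N, 55.7 and 76.8 CPM in G&N-L and 134 and 196 CPM with Lac-CoA (1.27 ± 0.284 for Lac-CoA against G&N-L, edgeR adjusted p = 0.294; DESeq2 0.0028). Polr2h was the only one of the 5 whose Lac-CoA libraries were both above its G&N libraries. Polr2l was at 192 and 234 CPM in G&N, 137 and 146 CPM in G&N-L and 213 and 173 CPM with Lac-CoA (-0.54 ± 0.200, edgeR adjusted p = 0.376 without lactate). Polr2e was at 80.2 and 112 CPM in G&N, 72.4 and 84.9 CPM in G&N-L and 92.1 and 144 CPM with Lac-CoA. Polr2f was at 494 and 568 CPM in G&N, 417 and 389 CPM in G&N-L and 479 and 353 CPM with Lac-CoA, so that Lac-CoA overlapped with G&N-L.

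Among the Pol III genes, Polr3k was at 299 and 490.1 CPM in G&N, 177 and 174 CPM in G&N-L and 397 and 390.1 CPM with Lac-CoA. The log2 fold changes were -1.11 ± 0.263 (edgeR adjusted p = 0.321; DESeq2 0.00794) and 1.12 ± 0.163 (edgeR 0.294; DESeq2 2.62e-06). Polr3a was at 40.1 and 34.2 CPM in G&N, 11.2 and 14.6 CPM in G&N-L and 35.9 and 36.8 CPM with Lac-CoA, with -1.48 ± 0.352 (edgeR adjusted p = 0.321; DESeq2 0.0207) and 1.45 ± 0.332 (edgeR 0.294; DESeq2 0.0132). The catalytic and the cleavage subunit were thus both lowest in G&N-L, while their G&N and Lac-CoA libraries overlapped. Polr3b was at 21.9 and 23.4 CPM in G&N, 12.4 and 9.50 CPM in G&N-L and 17.5 and 32.3 CPM with Lac-CoA (-0.99 ± 0.390 without lactate, edgeR adjusted p = 0.405). Polr3e, a subunit of the dimer related to the Pol II factor TFIIF, was low throughout and was at 7.09 and 12.2 CPM in G&N, 2.47 and 1.51 CPM in G&N-L and 13.1 and 12.2 CPM with Lac-CoA (-2.21 ± 0.680 and 2.61 ± 0.612, edgeR adjusted p of 0.333 and 0.294). Polr3g was not lowest in G&N-L, with 94.3 and 50.02 CPM there against 44.6 and 52.2 CPM in G&N, which overlapped (0.63 ± 0.368, edgeR adjusted p = 0.632). Polr3c, which belongs to the same initiation trimer, was at 21.8 and 10.03 CPM in early G&N, 16.02 and 14.1 CPM in early G&N-L, 11.3 and 29.3 CPM in late G&N, 27.98 and 10.6 CPM in late G&N-L and 19.9 and 17.7 CPM with Lac-CoA, and its 3 late groups overlapped. Of the other Pol III genes, Polr3d ranged over the 14 libraries from 3.90 to 23.2 CPM and Polr3f from 6.75 to 35.1 CPM. The gene span of Polr3f, introns included, shares 11838 bases with that of Rbbp9 on the opposite strand, so the count of Polr3f is uncertain in the same way as that of Polr2c.

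**Figure D5:**
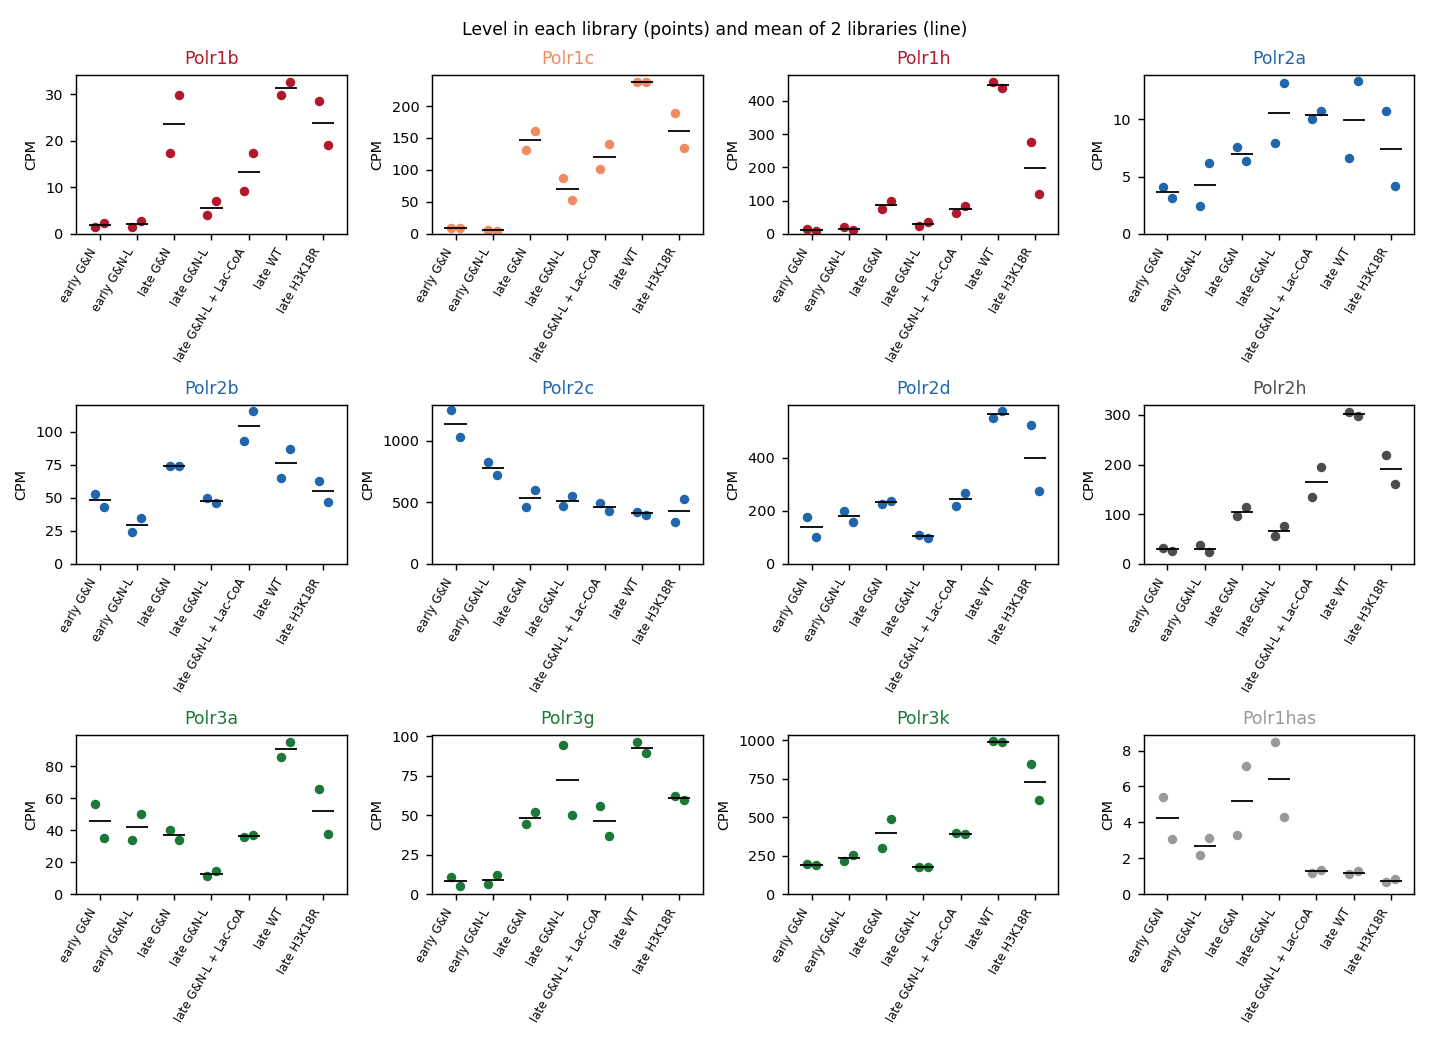
CPM of 12 genes in each library (points) and the mean of the 2 libraries of a group (line) across the 7 groups, on linear axes from 0. Polr1b, Polr2d, Polr3a and Polr3k are lowest among the late groups in G&N-L, Polr2a and Polr3g are not, and Polr1has has its low values in the Lac-CoA, WT and H3K18R groups.

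Compared directly with late G&N embryos, Lac-CoA embryos had 14 of the 31 genes higher and 17 lower, with a median log2 fold change of -0.05 against 0.01 over 19613 genes. edgeR called 0 of 31 (0% of all genes). At an unadjusted p under 0.05, 1 was higher (4.41% of all genes), Polr2h at 0.74 ± 0.273 on the log2 scale, and 1 lower (4.1%), Polr1f at -0.93 ± 0.347. DESeq2 called 0 of 31, where it called 271 of the 19613 genes higher and 205 lower. The edgeR adjusted p was 0.523 for Polr2h and 0.531 for Polr1f. Polr2b had the next smallest p, with 0.59 ± 0.248 (edgeR adjusted p = 0.623). The comparison shares its libraries with the other 2 late comparisons. A p that misses the threshold does not show that the levels were equal.

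Polr1h and Polr1has start back to back on chromosome 17, in GRCm39 at chr17:37265028-37269451 on the minus strand and chr17:37269484-37277822 on the plus strand, and their transcripts did not move together. Polr1has was at 5.40 and 3.05 CPM in early G&N, 2.19 and 3.13 CPM in early G&N-L, 3.31 and 7.12 CPM in late G&N, 8.48 and 4.31 CPM in late G&N-L, 1.20 and 1.34 CPM with Lac-CoA, 1.13 and 1.26 CPM in WT and 0.671 and 0.833 CPM in H3K18R embryos. The last 3 groups, with at most 1.34 CPM, were below every library of the first 4. These 3 are also the groups that the paper describes as injected, so this split cannot be told apart from injection. Between Lac-CoA and G&N-L the log2 fold change of Polr1has was -2.39 ± 0.825 (edgeR adjusted p = 0.312), while that of Polr1h was 1.35. The RefSeq window of Polr1has at chr17:36958350-36958649 (GRCm38.p6, plus strand) holds the start of Polr1h on the other strand. Each of the 2 genes has a further RefSeq window with another start, and the starts nearest each other were used. The capitals below mark the 74 bases between these starts of Polr1h and Polr1has.
Polr1has: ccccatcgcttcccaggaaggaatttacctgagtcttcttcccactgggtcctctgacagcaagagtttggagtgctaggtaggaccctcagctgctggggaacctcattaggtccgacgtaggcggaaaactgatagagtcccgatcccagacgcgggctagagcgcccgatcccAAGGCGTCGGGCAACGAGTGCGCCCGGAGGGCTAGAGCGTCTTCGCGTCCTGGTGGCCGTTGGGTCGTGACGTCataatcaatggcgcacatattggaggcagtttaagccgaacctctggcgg

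Overexpression of H3K18R was compared with the libraries labelled WT at the late 2-cell stage. The polymerase genes were lower in 28 of 31 cases, with a median log2 fold change of -0.44 against 0.03 over 17704 genes. edgeR called 0 of 31 at an adjusted p under 0.05, compared with 0.00565% of all genes. DESeq2 called 0 of 31, where it called 89 of the 17704 genes higher and 31 lower. At an unadjusted p under 0.05, 3 were lower (2.67% of all genes) and 0 higher (3.77%). The H3K18R libraries were both below the WT libraries for 16 genes, compared with 19.5% of all genes. Leaving out H3K18R replicate 2 gave a median of -0.25, and leaving out its replicate 1 gave -0.82. Replicate 2 was the library with the most RNA of oocyte markers in these groups, at 8220 CPM against 3989 CPM in replicate 1 and 3615 and 3698 CPM in WT. The part of oocyte RNA in the lower values was not tested. The 3 genes, each with its log2 fold change and edgeR adjusted p, were Polr3c (50.4 and 54.6 CPM in WT and 27.3 and 24.7 CPM in H3K18R, -1.01 ± 0.325, adjusted p = 0.734), Polr1f (98.9 and 76.9 CPM in WT and 53.3 and 45.9 CPM in H3K18R, -0.82 ± 0.308, adjusted p = 0.746) and Polr1h (457 and 439 CPM in WT and 276 and 119 CPM in H3K18R, -1.17 ± 0.442, adjusted p = 0.746). All 3 had both H3K18R libraries below both WT libraries.

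Several of the largest and the common subunits also lay lower in H3K18R than in WT without passing the test. Polr1a was at 15.1 and 32.8 CPM in WT and 24.2 and 13.2 CPM in H3K18R, Polr1b at 29.96 and 32.7 CPM in WT and 28.6 and 19.2 CPM in H3K18R, Polr3a at 86.2 and 95.5 CPM in WT and 66.1 and 37.8 CPM in H3K18R and Polr3b at 57.8 and 51.2 CPM in WT and 53.95 and 37.8 CPM in H3K18R. Of these, Polr1b and Polr3a did not overlap between the groups. Polr3k was at 994 and 986 CPM in WT and 843 and 612 CPM in H3K18R. Among the common subunits, Polr2e was at 237 and 206 CPM in WT and 162 and 141 CPM in H3K18R, Polr2f at 527 and 642 CPM in WT and 470.4 and 392 CPM in H3K18R, Polr2h at 306 and 298 CPM in WT and 220.4 and 161 CPM in H3K18R, Polr2k at 148 and 209.8 CPM in WT and 183 and 161 CPM in H3K18R and Polr2l at 483 and 477 CPM in WT and 450.01 and 254 CPM in H3K18R, and Polr2k was the one that overlapped. Levels in WT were well above those of late G&N embryos for several genes, 439 and 457 CPM against 74.3 and 98.2 CPM for Polr1h and 986 and 994 CPM against 299 and 490 CPM for Polr3k. What else differed between these groups than their labels cannot be told apart, and no test was made.

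At the early 2-cell stage the removal of lactate gave no such pattern. In early G&N-L against early G&N, 16 genes were higher and 15 lower, with a median of 0.03 against -0.01 over 17343 genes. The direction rested on single libraries and on the scaling, with a median of -0.30 without early G&N-L replicate 2, -0.19 without early G&N replicate 2, 0.22 without early G&N replicate 1 and -0.00496 with library totals. edgeR called 0 of 31 (0% of all genes). DESeq2 also called 0 of 31, where it called 22 of the 17343 genes higher and 16 lower. At an unadjusted p under 0.05, 1 gene was lower (2.7% of all genes) and 0 higher (1.82%): Polr2c, at -0.43 ± 0.164 on the log2 scale (edgeR adjusted p = 1). Polr3k and Polr2d had the next smallest p, at 0.44 ± 0.221 and 0.50 ± 0.255, both higher in G&N-L (edgeR adjusted p = 1), against the direction they took at the late stage.

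Whether the effect of lactate differed between the stages was tested as an interaction in 1 fit of the 8 G&N and G&N-L libraries. Its log2 value, the late effect minus the early effect, was negative for 23 of 31 genes and had a median of -0.49, against 0.06 over 22287 genes. edgeR called 0 of 31 at an adjusted p under 0.05 (0% of all genes; smallest adjusted p 0.536). At an unadjusted p under 0.05, 7 were lower (3.98% of all genes) and 0 higher (3.57%). DESeq2 called 3 lower (0.93% of all genes with an adjusted p), Polr2d, Polr3k and Polr1h. The values were -1.57 ± 0.339 for Polr2d, -1.52 ± 0.384 for Polr3k and -2.05 ± 0.529 for Polr1h, and -2.23 ± 0.958 for Polr1b, -1.47 ± 0.503 for Polr3a, -1.32 ± 0.459 for Polr2k and -0.86 ± 0.319 for Polr2l.

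Factors that work with the polymerases but did not match the rule were read from lists of 7 Pol I factors, 16 Pol III factors and 14 factors of assembly and nuclear import. Without lactate, 14 of the 16 Pol III factors were lower in late embryos, 6 of them at an unadjusted p under 0.05, and with Lac-CoA 16 of 16 were higher than in G&N-L, 5 at that level. Over all genes, 7.65% were lower and 6.92% higher at that level in these comparisons, and DESeq2 called 3.46% and 3.8%. edgeR called 0 of 16 in either comparison and DESeq2 4 of 16 in each. The gene with the smallest p in both was Gtf3c6, a subunit of TFIIIC, which binds the internal promoters of transfer RNA genes. Its log2 fold change was -1.61 without lactate and 1.47 with Lac-CoA (edgeR adjusted p of 0.311 and 0.294). Of 6 Pol I factors tested, 5 were lower without lactate (2 at an unadjusted p under 0.05) and 5 higher with Lac-CoA (2), with 0 calls by edgeR and 1 and 2 by DESeq2. Taf1b, of the Pol I selectivity factor, had the smallest p in both, at -1.24 and 2.01 (edgeR adjusted p of 0.324 and 0.294). Of the 14 assembly factors, 10 were lower without lactate (2 at that level), led by the GTPase Gpn3 (-1.20, edgeR adjusted p = 0.333), and 10 higher with Lac-CoA (2), led by the ATPase Ruvbl1 (1.03, edgeR adjusted p = 0.294), with 0 calls by edgeR and 1 and 2 by DESeq2. Between H3K18R and WT, 7 of 7, 13 of 16 and 11 of 14 were lower and 0 of each had an unadjusted p under 0.05, with Rrn3 (-0.66), Snapc3 (-0.54) and Pdrg1 (-0.81) at the smallest p and DESeq2 calling 0.

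With the stage, where edgeR called 8.18% of all genes higher and 5.47% lower in G&N and 5.97% and 5.87% in G&N-L, 2 of 7 Pol I factors rose in G&N, and 2 of 6 rose and 1 fell in G&N-L, led in both by Taf1d (3.02 and 2.62 on the log2 scale, edgeR adjusted p of 0.00625 and 0.00588). Of the 16 Pol III factors, 3 rose and 1 fell in G&N, and 1 rose and 1 fell in G&N-L. Brf2, which serves the Pol III promoters that lie outside the gene, had the smallest p and fell in both, with log2 fold changes of -3.40 and -2.88 (edgeR adjusted p of 0.00941 and 0.0166). Of the 14 assembly factors, 3 rose and 1 fell in G&N, led by Gpn1 (3.13, edgeR adjusted p = 0.0138), and 3 rose and 2 fell in G&N-L. Early G&N-L against G&N gave 0 calls in the 3 lists by edgeR and DESeq2. At an unadjusted p under 0.05, 2 Pol I factors and 1 Pol III factor were lower (2.7% of all genes) and 1 assembly factor higher (1.82%). Taf1c, Brf2 and Pdrg1 had the smallest p. Taf1c was barely detected, at 0 and 0 CPM in early G&N-L and 0.432 and 0.614 CPM in early G&N. Lac-CoA against G&N gave 0 calls by edgeR. DESeq2 called 1, 1 and 0 higher, where it called 271 of 19613 genes higher. At an unadjusted p under 0.05, 2, 1 and 0 were higher (4.41% of all genes) and 0 lower (4.1%). Taf1d (0.79), Snapc2 (1.37) and Gpn2 (-0.65) had the smallest p. The interaction gave 0 calls by edgeR. DESeq2 called 1, 1 and 0 lower (0.93% of all genes with an adjusted p). At an unadjusted p under 0.05, 1, 4 and 0 were lower (3.98% of all genes) and 0 higher (3.57%). Ttf1, Snapc5 and Pdrg1 had the smallest p, and Ttf1 was barely detected in early G&N, at 0 and 0.0455 CPM.

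Polymerase subunits whose symbols fall outside the rule were read beside them. Cd3eap, the partner of Polr1e in the Pol I dimer, was at 0.726 and 0 CPM in early G&N, 0.0504 and 0.0453 CPM in early G&N-L, 6.35 and 11.2 CPM in late G&N, 0.598 and 0.991 CPM in late G&N-L, 4.23 and 7.01 CPM with Lac-CoA, 19.001 and 23.9 CPM in WT and 16.9 and 9.33 CPM in H3K18R embryos. Its late G&N-L libraries were below all other late libraries (-3.41 on the log2 scale against G&N, edgeR adjusted p = 0.316), as those of Polr1e were. Crcp, a stalk subunit of Pol III, was at 17.6 and 30.3 CPM in late G&N and 27.5 and 34.6 CPM in late G&N-L and did not share that order. Polrmt, the polymerase of mitochondria, was at 17.96 and 17.5 CPM in WT and 5.32 and 3.68 CPM in H3K18R embryos (-1.97, edgeR adjusted p = 0.734).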

How the data were processed

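Gene counts from RNA sequencing of pooled 2-cell embryos were deposited by the authors as 1 table of 56923 genes, whole numbers with no normalization. Per the submitters' notes and the study's methods, reads were trimmed with Trim Galore, aligned to mm39 with HISAT2 and counted with featureCounts; versions, strand and multi-mapping settings are not given in the sources used here. Reads of overlapping genes on opposite strands may therefore be counted together.

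Groups came from the sample titles, with 2 libraries in each of 7 groups, although the methods mention more replicates. Library totals are given with the results. Every comparison had a fit of its own groups only, over all genes passing edgeR's expression filter, with the quasi-likelihood test (R 4.3.3, edgeR 4.0.16, limma 3.58.1), TMM scaling, a prior count of 0.125 for fold changes and Benjamini-Hochberg adjustment (threshold 0.05, two-sided). The fits were tested on simulated data. DESeq2 1.42.0, other scalings and filters, 1 fit of all 14 libraries, a replicate block and leaving out each library were alternatives. Replicate numbers did not pair the libraries, with correlations of deviations of -0.122 to 0.00698.

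The members and lists were chosen with earlier results of these data known. Values in every library were set for the 2 largest subunits of each enzyme, the shared subunits, Polr3g and Polr3gl, and the 3 genes with the smallest p in each comparison. Values printed for other genes (Polr1e, Polr2g, Polr2m, Polr3e and Polr1has) were chosen after their values were seen. Of each list of factors, the gene with the smallest p was named. Cd3eap, Crcp and Polrmt were read as further subunits, Cd3eap being added once the table's symbols were known. Older symbols of Polr1f, Polr1h and Polr1has were matched by hand to RefSeq, whose promoter windows are on GRCm38.p6 and were not converted. The values of 1 of the 31 genes are not reported here, although it counts in the totals over the list.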

Additional observations from a re-analysis of the deposited data

How the results depend on the processing

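Each comparison with 2 libraries in a group rests on few residual degrees of freedom, and where 1 library was left out the lone library was assumed to vary like the other group. Over the named genes, 592 alternative values kept their direction and side of the threshold, 53 no longer passed, 21 newly passed and 0 turned direction. For late G&N-L against G&N, the count of polymerase genes called went from 0 to 2 with no filter on low counts (Polr1h and Polr1e) and 6 with DESeq2. For Lac-CoA against G&N-L it went from 0 to 7 with DESeq2, and the median log2 fold change was 0.75 with library totals, 0.76 with the replicate block and 0.44 to 0.83 leaving out a library. The early G&N-L against G&N median turned to -0.30 without early G&N-L replicate 2, in a range of -0.30 to 0.22. The H3K18R against WT median ranged from -0.82 to -0.25. For late against early G&N, 10 calls became 17 with at least 10 counts in every library and 19 with DESeq2 (17 higher, where 19% of all genes were, and 2 lower, where 12.1% were). The median was 1.35 with library totals and 0.93 to 1.39 leaving out a library. For late against early G&N-L, 7 calls became 12 with at least 10 counts, 13 with DESeq2 (9 higher, where 17% of all genes were, and 4 lower, where 11.4% were) and 4 with the replicate block. Its median was 0.73 with at least 10 counts, 0.97 with library totals, 0.67 in 1 fit of all libraries and 0.42 to 0.75 leaving out a library. The interaction went from 0 calls to 3 with no filter and 3 with DESeq2, with a median of -0.77 to -0.30 leaving out a library. For the other filters, and in the stage comparisons for the replicate block, the share of all genes called is not given here. The cause of these shifts was not tested.

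With the replicate number as a block, Polr1d (adjusted p = 0.053), Polr2f (0.0531) and Polr2g (0.0551) lost their edgeR call in G&N, and Polr3g (0.0523), Polr2e (0.0749) and Polr3a (0.051) in G&N-L. In the early comparison, whose same-numbered libraries had a correlation of -0.122, a crossed pairing added after seeing the data gave 0 calls over all genes, as did the replicate block and the fit without it.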
